A study of Mus musculus with 6 samples.

Results

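Fatty acid handling and lipid uptake genes were examined in the cardiac outflow tract of mouse embryos, a tube that leads blood away from the ventricles and is later divided into the aorta and the pulmonary trunk. The list held 30 genes of fatty acid binding and uptake, mitochondrial oxidation, lipid droplets and lipoprotein uptake, and its members were all probe sets whose platform annotation named only 1 of these genes. A probe set is the group of array probes that together report 1 transcript. This rule found 53 probe sets of 26 genes among 45037 probe sets naming 18193 single genes, and Acsl1, Cpt1b, Ucp2 and Plin1 were not analysed here.

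The superior and the inferior outflow tract subdomain were taken from untreated CD1 embryos of day 10.5, and their total RNA was read on Affymetrix Mouse Genome 430 2.0 arrays. Each subdomain had 3 pools, numbered 1, 6 and 7, with 1 array for each pool. The sample labels give 6 littermates per pool and the design text gives 7 pieces per domain, a point the sources used here do not settle. The labels do not state whether the pools came from separate litters. Paired p-values, with the pool number as a block, measure how the region difference varied between these pools, with variance shared across probe sets. Values are MAS5 signals on a linear scale, which the authors scaled to a common level on every array. A signal above 8.0, the highest signal of 27 bacterial control probe sets without a target in the sample, is called above background here.

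Long-chain fatty acids are an energy source of the adult heart. They are released from lipoproteins by lipoprotein lipase, taken up with the help of CD36, carried in the cytosol by fatty acid binding proteins, and then either burned in mitochondria or stored in lipid droplets coated by perilipins. Lipoprotein particles themselves enter cells through receptors of the LDL receptor family, for which apolipoprotein E is a ligand. The embryonic heart before birth relies mainly on carbohydrate, and the switch to fatty acids follows after birth.

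All 14 listed heart muscle markers were above background on average, although Irx4 was close to it in inferior pools, at 10.4 to 11.2. Of 5 further adipocyte genes measured, Lep, Retn and Cidec were at or below background on every array, as were Adipoq, Plin4 and Plin5 among the members. The other adipocyte genes were Slc2a4, at 40.9 to 54.0 for its brightest probe set, and Lipe, which reached 11.0 and was above background on 3 arrays. The arrays of pool 1 stood apart in RNA measures. The ratio of 5' to 3' signal of the Gapdh control was 0.77 in superior 1 and 0.45 in inferior 1 against 1.11 to 1.20 on the other arrays, and the mean 18S ribosomal RNA signal was 77.6 and 67.8 against 438.7 to 690.3. Spiked hybridisation controls were 1.63 times the median array in superior 6. Members that the results turn on are therefore given on every array, and the others by their range or difference. The value without a pool is given where a call depends on it.

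The lipid genes showed no common shift between the subdomains. Of the 34 member probe sets bright enough to be tested, which covered 21 genes, 1 differed between superior and inferior pools. It was that of Apoe, which was lower in superior pools, and 0 were higher. Over all 22518 probe sets tested 0.160% were called, 0.0666% as lower and 0.0933% as higher in superior pools, and over genes the share was 0.250%. A single call is too few to describe the list as a whole. Calls rest on limma with the pool number as a block and a Benjamini-Hochberg adjusted p threshold of 0.05 over all probe sets tested. Using the brightest tested probe set of each gene, 10 members had a positive and 11 a negative difference. The median log2 difference was -0.02, beside 0 over all 11195 tested genes, and the middle of the distribution ran from -0.24 to 0.08. In pools 1, 6 and 7 the members' median was -0.08, -0.10 and 0.05, beside 0.01, -0.03 and 0.02 for all tested genes.

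**Figure D1:**
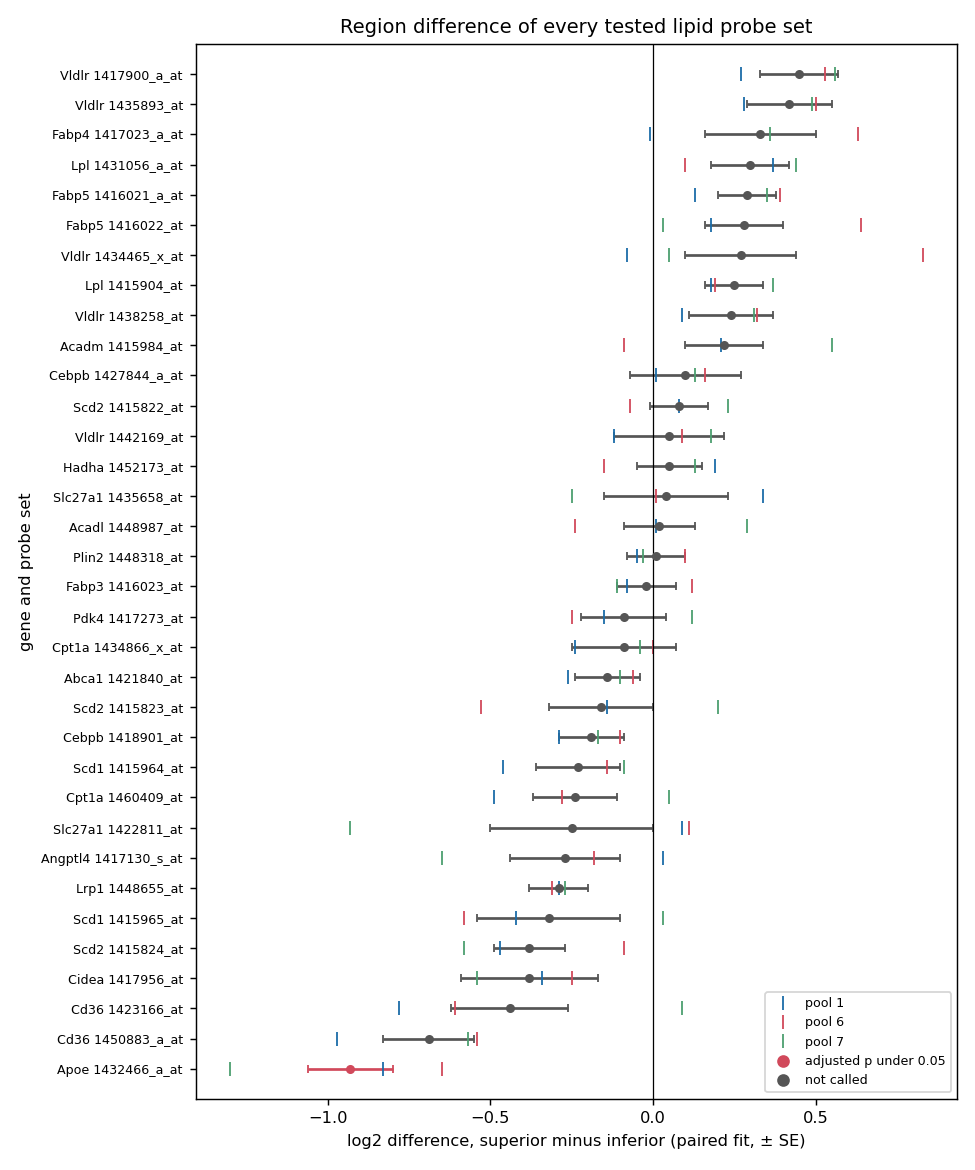
Log2 difference, superior minus inferior (horizontal axis), for the 34 tested member probe sets (vertical axis), with points for the paired limma estimate, bars for its standard error and ticks for the 3 pools. Apoe, in red at -0.93, is the only probe set with an adjusted p below 0.05, and most others lie within 0.5 of 0 on either side.

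Smaller differences, most of which did not pass the adjusted threshold, were counted by their sign and overlap. The 3 pools had the same sign for 16 of the 34 tested member probe sets (47.1%), 8 higher and 8 lower, beside 34.0% over all probe sets tested, 15.0% higher and 19.0% lower. At an unadjusted p threshold of 0.05, 11 of the 34 member probe sets (32.4%), of 7 genes, passed, 6 higher and 5 lower. Over all probe sets the share was 11.0%, 4.98% higher and 6.00% lower. The regions did not overlap for 5 of the 34 member probe sets (14.7%), of which 4 were lower in superior pools and 1 was higher. Over all probe sets the share was 9.21%, 4.56% lower and 4.65% higher. Several probe sets of 1 gene share its transcripts, so these counts are not counts of independent genes. They describe the list and were not tested against other lists. When pools were left unpaired, limma called 0 member probe sets, and 3 of the 34 passed at an unadjusted p threshold of 0.05, beside 3.52% over all probe sets.

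Apoe encodes apolipoprotein E, a secreted lipid carrier and receptor ligand that in many tissues comes from macrophages and glial cells. Its probe set had signals of 140.7, 234.9 and 193.7 in superior pools 1, 6 and 7 and of 252.9, 371.3 and 481.9 in the inferior pools. All 3 superior arrays lay below all 3 inferior arrays, and the gap was widest in pool 7. The means were 189.8 ± 47.2 (SD, n = 3) and 368.7 ± 114.5 (n = 3). The difference was -0.93 ± 0.13 on the log2 scale (SE of the paired fit), a 1.90-fold higher level in inferior pools (limma, adjusted p = 0.0484). Within pools it was -0.83, -0.65 and -1.30. The call lay close to its threshold. It ended without pool 1 (adjusted p = 0.119), without the block (adjusted p = 1) and in several other settings, while the difference stayed between -1.07 and -0.74 in all of them.

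Apoe is the member that the region comparison turns on, and its start region is shown for that reason. RefSeq (GRCm38.p6) gives 3 start sites for Apoe, and the window of the most upstream one, from 250 bases before to 50 bases after the start on the minus strand, lies at chr7:19699139-19699438. Capitals would mark the hexamer AGGTCA, the element recognised by PPAR, RXR and other nuclear receptors, on either strand. The letters do not occur in it, nor in the other Apoe windows.

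Apoe: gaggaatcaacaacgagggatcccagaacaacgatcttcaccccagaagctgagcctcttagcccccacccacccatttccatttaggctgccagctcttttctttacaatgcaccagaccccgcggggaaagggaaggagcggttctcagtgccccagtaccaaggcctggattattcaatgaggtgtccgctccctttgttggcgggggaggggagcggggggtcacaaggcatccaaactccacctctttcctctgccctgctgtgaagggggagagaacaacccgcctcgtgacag

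Cell type markers that could bear on Apoe were measured on the same arrays, each list as the summed signal of the brightest probe sets of its tested genes. For 9 of 17 macrophage markers bright enough to test, the sum ran from 138.8 to 386.6 in superior and from 154.3 to 338.8 in inferior pools, so the regions overlapped. By sign, 7 of the 9 genes were higher in superior pools, beside 5507 of all 11195 tested genes, and none was called. Their median log2 difference was 0.16. Within pools 1, 6 and 7 the sums were 272.7, 386.6 and 138.8 in superior and 335.8, 338.8 and 154.3 in inferior arrays. The inferior 1 sum held a Ptprc signal of 155.4, against 2.8 to 18.8 on the other arrays. Without Ptprc, left out after its values were seen, the sums were 130.8 to 367.8 in superior and 151.5 to 321.2 in inferior pools. The macrophage markers Cd163 and Timd4 were at or below background. For 7 of 10 neural crest markers the sum was 672.3 to 832.3 in superior and 842.7 to 1088 in inferior pools, with no overlap and 6 of 7 genes lower by sign, none of them called. Ets1 made up most of this sum, with signals of 456.5 to 677.6. Sox10 was the 1 gene higher by sign, at 0.31 ± 0.21 (limma, adjusted p = 0.626). Foxd3 and Tfap2b were at or below background. For 10 of 12 epicardial markers the sum was 1324 to 2263 in superior and 798.4 to 1073 in inferior pools. All 10 were higher in superior pools by sign, with a median log2 difference of 1.07. The 5 genes Tbx18, Tcf21, Upk1b, Aldh1a1 and Aldh1a2 were called higher, beside 0.250% of all tested genes called in either direction. In bulk tissue, fewer cells of a type and less RNA per cell cannot be told apart, and the part of these markers in the Apoe difference was not tested.

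The other lipoprotein genes did not pass the test, and their values were chosen for display after they had been seen. Lrp1, a large endocytic receptor of the LDL receptor family that binds apolipoprotein E, had signals of 220.4, 263.2 and 240.7 in superior and of 270.8, 328.1 and 289.9 in inferior pools. The superior arrays again lay below the inferior ones without overlap, by nearly the same amount in each pool. The log2 difference was -0.29 ± 0.09 (limma, adjusted p = 0.359), with -0.29, -0.31 and -0.27 in pools 1, 6 and 7.

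Vldlr, the very low density lipoprotein receptor, is abundant in adult heart muscle, and its values ran the other way. The third brightest of its probe sets had signals of 86.3, 96.2 and 81.2 in superior and of 70.6, 66.9 and 56.8 in inferior pools. This was the 1 tested member probe set whose superior arrays all lay above the inferior ones. The log2 difference was 0.42 ± 0.13 (limma, adjusted p = 0.335). The next brighter probe set gave 0.45 ± 0.12 (adjusted p = 0.296) with signals of 115.4, 113.0 and 86.2 against 95.0, 77.1 and 57.6. Of 5 tested Vldlr probe sets all had a positive estimate, from 0.05 to 0.45, and none was called. The brightest had 0.27 ± 0.17, resting on 396.3 in the superior 6 array against 218.0 to 258.8 on the other 5. Abca1, which exports cholesterol to lipoprotein particles, had signals of 192.0 to 323.6 in superior and 230.8 to 347.1 in inferior pools for its 1 tested probe set, and its difference was -0.14 ± 0.10 (adjusted p = 0.638).

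**Figure D2:**
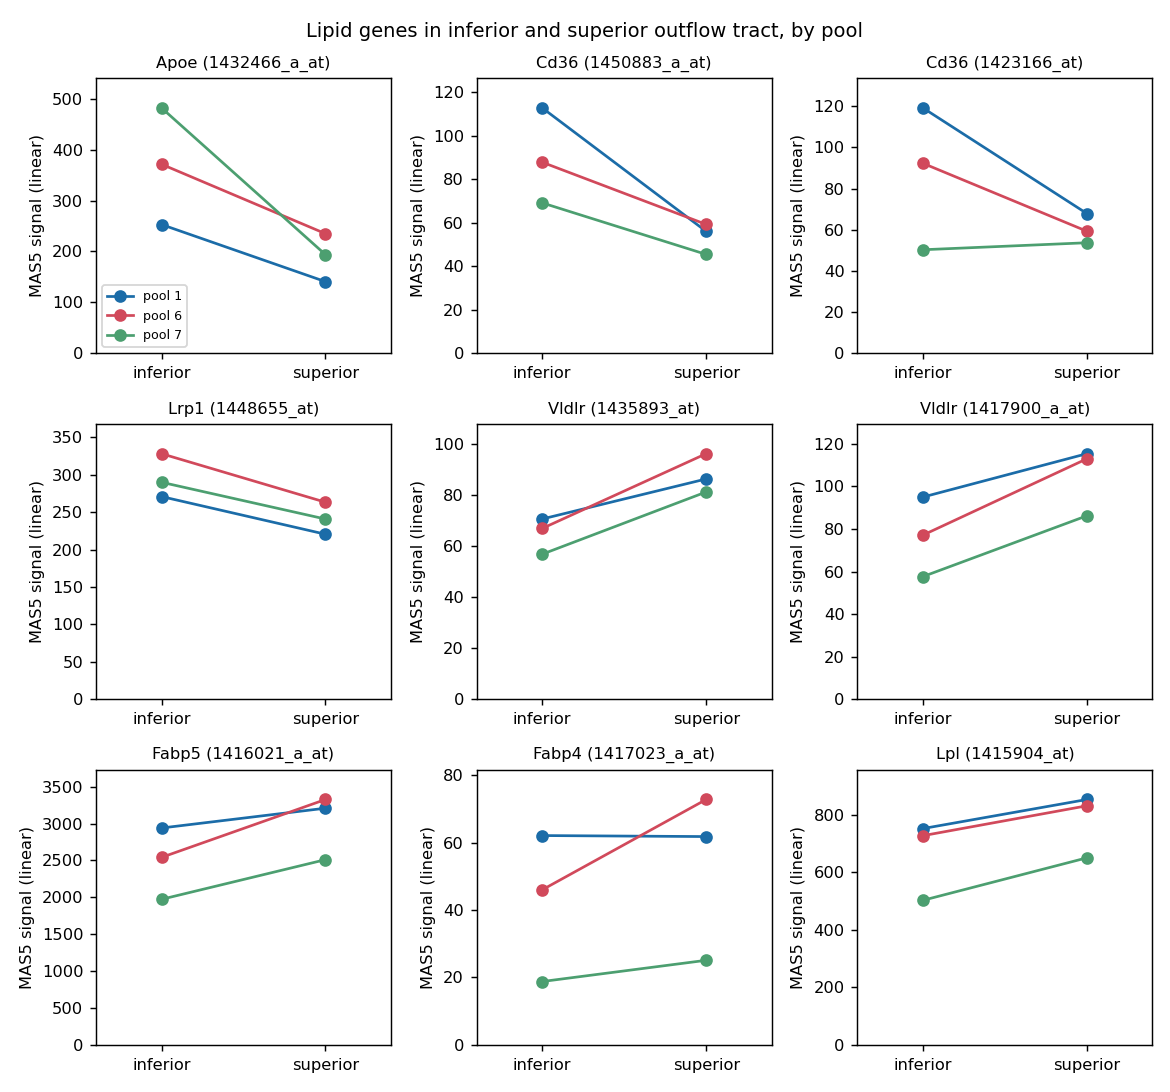
MAS5 signal on a linear axis (vertical) in the inferior and superior arrays (horizontal), joined within each pool, for 9 member probe sets of 7 genes. Apoe, Lrp1 and the non-overlapping Cd36 probe set go down from inferior to superior in all 3 pools, both Vldlr probe sets, Fabp5 and Lpl go up, and Apoe alone passed the test.

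All 7 fatty acid binding and uptake genes had a tested probe set and none was called, with a median log2 difference of 0.04. Cd36, a membrane receptor that takes up fatty acids in endothelium, muscle and macrophages, had signals of 56.1, 59.3 and 45.5 in superior and of 112.9, 87.9 and 69.2 in inferior pools for one of its tested probe sets. The superior values lay below the inferior ones without overlap, and the gap was widest in pool 1. The log2 difference was -0.69 ± 0.14 (limma, adjusted p = 0.152), and -0.97, -0.54 and -0.57 within pools 1, 6 and 7. The other tested probe set gave -0.44 ± 0.18 (adjusted p = 0.434), with a difference of 0.09 in pool 7. The third Cd36 probe set was too dim to test, with signals from 6.4 to 17.6. Cd36 had the largest difference among the members that did not pass.

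The start region of Cd36 is shown because it holds an AGGTCA element and because the gene had the next largest difference after Apoe. The window lies at chr5:17835847-17836146 (GRCm38.p6, RefSeq, minus strand), with the element, here as its reverse complement, in capitals.

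Cd36: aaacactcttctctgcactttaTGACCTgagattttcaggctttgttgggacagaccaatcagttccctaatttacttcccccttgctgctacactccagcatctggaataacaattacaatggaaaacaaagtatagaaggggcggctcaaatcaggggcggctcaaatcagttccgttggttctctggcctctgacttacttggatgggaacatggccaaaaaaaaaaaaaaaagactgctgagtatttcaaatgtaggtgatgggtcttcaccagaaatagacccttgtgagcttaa

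The fatty acid binding proteins are small cytosolic carriers named for the tissues in which they were found. Fabp3, the heart type, had signals of 1464.0, 1286.2 and 1184.9 in superior and of 1542.4, 1181.2 and 1283.2 in inferior pools. The regions overlapped throughout, and the difference was -0.02 ± 0.09 on the log2 scale (adjusted p = 0.953). Fabp5, the epidermal type, which is also made by endothelium and macrophages, had signals of 3207.4, 3325.4 and 2510.2 against 2939.0, 2540.7 and 1972.7. Each superior array was above the inferior array of its pool, although the regions overlapped. Its difference was 0.29 ± 0.09 (limma, adjusted p = 0.370), and became 0.14 under quantile normalization and 0.17 under cyclic loess. Its dimmer probe set gave 0.28 ± 0.12 (limma, adjusted p = 0.446), with 0.18, 0.64 and 0.03 in pools 1, 6 and 7.

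Fabp4, the adipocyte type, is also made by endothelium and macrophages, and it varied between pools more than between regions. Its 1 tested probe set had signals of 61.8, 72.8 and 25.1 in superior and of 62.1, 46.0 and 18.8 in inferior pools. Pool 7 was lowest in both regions. The region difference was 0.33 ± 0.17 on the log2 scale (limma, adjusted p = 0.515). Macrophage markers were also lowest in pool 7, with summed signals of 138.8 and 154.3 there against 272.7 to 386.6 in pools 1 and 6. Without the outlying Ptprc they were 130.8 and 151.5 in pool 7 against 180.4 in inferior 1 and 257.8 to 367.8 on the remaining arrays, so that the inferior 1 array, where Fabp4 was 62.1, came close to pool 7. The summed signal of 13 endothelial markers was 3791 and 4094 in pool 7 against 3719 to 4500 in pools 1 and 6. Single endothelial markers went different ways. Tek was lowest in pool 7 in both regions, at 525.5 and 486.8, whereas Kdr was highest there, at 249.8 and 299.7. The part of macrophage or endothelial RNA in the Fabp4 values was not tested.

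Lpl, the lipase that frees fatty acids from circulating triglyceride, had signals of 852.3, 830.4 and 649.7 in superior and of 751.3, 726.6 and 502.1 in inferior pools. Every superior array was above its own inferior partner by a small margin. The log2 difference was 0.25 ± 0.09 (adjusted p = 0.389), and the dimmer probe set gave 0.30 ± 0.12 (adjusted p = 0.434). Angptl4, a secreted inhibitor of this lipase, had signals of 30.1 to 57.6 in superior and 45.2 to 65.8 in inferior pools, with a difference of -0.27 ± 0.17 (adjusted p = 0.603). Slc27a1, a fatty acid transport protein of the plasma membrane, had signals of 14.2 to 25.5 and 17.9 to 30.0 for one tested probe set, and its estimates of -0.25 ± 0.25 and 0.04 ± 0.19 had opposite signs.

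Genes of mitochondrial fatty acid oxidation were grouped with Pdk4, a regulator of glucose oxidation. The 5 tested members of this group had differences from -0.24 to 0.22 on the log2 scale, and none was called. Their median of 0.02 turned to -0.02 under quantile normalization and to -0.04 under cyclic loess. Acadm, the medium-chain acyl-CoA dehydrogenase, had signals of 1497.3, 1225.1 and 1305.2 in superior and of 1290.9, 1305.3 and 890.9 in inferior pools. Its difference of 0.22 ± 0.12 (adjusted p = 0.533) rested mostly on the low inferior 7 array. Acadl, the long-chain enzyme, differed by 0.02 ± 0.11 (adjusted p = 0.968), and Hadha, a subunit of the trifunctional protein of the oxidation spiral, by 0.05 ± 0.10 (adjusted p = 0.886). Cpt1a, which carries fatty acids into mitochondria in liver and fetal heart, had signals of 89.7, 122.3 and 111.9 against 127.0, 149.3 and 108.3. That gave -0.24 ± 0.13 (adjusted p = 0.538), with pool 7 of the opposite sign. Pdk4, the kinase that shuts off glucose oxidation when fatty acids are burned, differed by -0.09 ± 0.13 (adjusted p = 0.836). Ucp3, a mitochondrial carrier of skeletal muscle, was too dim to test, with a highest signal of 19.8.

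Lipid droplet genes separated into a bright one and a group near background. Plin2, the perilipin that coats droplets in most cells, had signals of 455.1, 474.5 and 475.5 in superior and of 469.7, 443.0 and 485.9 in inferior pools. These 6 values were among the most even of the list, and the difference was 0.01 ± 0.09 on the log2 scale (adjusted p = 0.986). Plin4 and Plin5, perilipins of fat and oxidative muscle, reached at most 4.5 and 7.7, and Adipoq, the adipocyte hormone adiponectin, at most 5.4. These are at or below background on every array. Cidea, a droplet fusion protein of brown fat, had signals of 15.2, 12.4 and 11.9 in superior and of 20.1, 15.4 and 18.8 in inferior pools. Its regions did not overlap, but the difference of -0.38 ± 0.21 was not called (limma, adjusted p = 0.536).

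Cebpa and Cebpb are transcription factors that drive fat cell differentiation. The brighter Cebpb probe set was well above background, with 119.3 to 169.7 in superior and 134.8 to 207.6 in inferior pools. It differed by -0.19 ± 0.10 on the log2 scale (limma, adjusted p = 0.548). The dimmer tested Cebpb probe set had the opposite sign, at 0.10 ± 0.17 (limma, adjusted p = 0.868). Cebpa was too dim to test, with 10.2, 12.7 and 10.4 in superior and 8.6, 9.9 and 0.5 in inferior pools. Scd1, a stearoyl-CoA desaturase that makes monounsaturated fatty acids, had signals of 66.3 to 88.3 against 80.8 to 94.0, a difference of -0.23 ± 0.13 (adjusted p = 0.557).

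Scd2, the desaturase isoform prominent in embryonic tissue, had 3 tested probe sets that behaved differently across pools. The brightest had signals of 2347.4, 2257.0 and 2526.3 in superior and of 2216.4, 2364.0 and 2153.1 in inferior pools. It was level between regions at 0.08 ± 0.09 on the log2 scale (adjusted p = 0.791), and its sign turned to -0.03 under quantile normalization and under cyclic loess. The next had signals of 210.9, 326.7 and 237.1 in superior and 292.4, 348.6 and 354.8 in inferior pools, a difference of -0.38 ± 0.11 (limma, adjusted p = 0.342).

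The remaining Scd2 probe set separated pool 1 from the others rather than the regions. It had signals of 11.9 and 13.4 in the superior and inferior arrays of pool 1, against 126.0, 157.5, 183.8 and 136.4 on the arrays of pools 6 and 7. The pool 1 arrays minus those of pools 6 and 7 gave -3.27 on the log2 scale, whereas the region difference was -0.16 ± 0.16 (adjusted p = 0.764). Over all tested probe sets, pool 1 was lower by 2 or more in 0.653% and higher by 2 or more in 0.0178%. It was the 1 member probe set with so large a gap. The remaining tested member probe sets had pool 1 differences from -0.79 to 0.74. These values stand beside the low 5' to 3' ratios and low 18S signal of the pool 1 arrays, whose part in them was not tested.

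**Figure D3:**
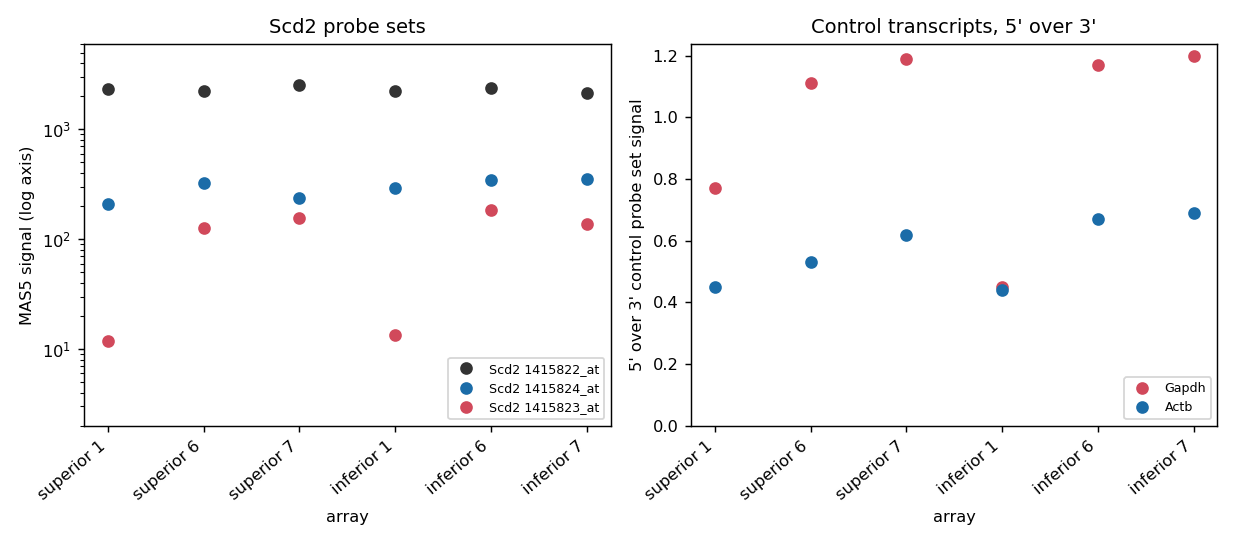
Left, MAS5 signal (log axis) of the 3 tested Scd2 probe sets on each of the 6 arrays. Right, ratio of 5' to 3' control probe set signal for Gapdh and Actb on the same arrays. The Scd2 probe set that separates pool 1 is at 11.9 and 13.4 in pool 1 and at 126.0 or more elsewhere, and the Gapdh ratio is 0.77 and 0.45 in pool 1 and at least 1.11 elsewhere.

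The AGGTCA element was also looked for in the start regions of the other members, since several of them are known targets of PPAR-RXR. RefSeq windows matched 19 of the 26 measured members. The letters AGGTCA occurred on either strand in the windows of 6 of these 19 genes (31.6%), beside 18.1% of 27025 genes with a window. A direct repeat of the hexamer spaced by 1 base occurred in 0 of the 19 and in 13 of all genes. A match is a run of letters and not evidence of binding. Of the 6 genes, Ucp3 and Plin5 were not bright enough to test, and Cd36, Cpt1a, Plin2 and Acadm had differences of -0.44, -0.24, 0.01 and 0.22 for their brightest probe sets, none of them called. The elements of Plin2 and Cpt1a and the nearer of 2 in Ucp3 are shown with 10 bases on either side, to let the contexts be compared with that of Cd36. They lie at chr4:86670262-86670287, chr19:3323197-3323222 and chr7:100472937-100472962 (GRCm38.p6), starting 218, 94 and 44 bases before the start site. The other Ucp3 element starts 149 bases before it.

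Plin2: tcaggaccccTGACCTaagtcagaca

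Cpt1a: gtttccttacTGACCTcctccccgca

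Ucp3: attaggtttcAGGTCAgctggtgcac

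Further genes of the same pathways had 0 calls by limma in either direction among the 82 tested, in 7 lists. At an unadjusted p threshold of 0.05, 15 of their 144 tested probe sets passed, beside 11.0% over all probe sets tested. The gene with the smallest p of any tested probe set of each list is named, and Echs1, Pnpla2, Sorl1, Acsl5 and Rxrb were added after their values had been seen. For mitochondrial beta-oxidation, 12 of 15 tested genes had a positive difference, beside 5507 of all 11195 tested genes. The median log2 difference was 0.11 beside 0 over all genes. The count was 11 under cyclic loess and 12 under the other scalings, and the summed signal was 8867 to 9334 in superior and 7929 to 8516 in inferior pools, with no overlap. Acad9, an acyl-CoA dehydrogenase and assembly factor of complex I, had a difference of 0.27 ± 0.11 (adjusted p = 0.426) for its brightest probe set but -0.37 ± 0.15 (adjusted p = 0.433) for another. Echs1, an enoyl-CoA hydratase, had 0.33 ± 0.14 (adjusted p = 0.433), with 0.77, 0.08 and 0.15 in pools 1, 6 and 7. Heart muscle markers had a summed signal of 43886 to 51520 in superior and 39196 to 40523 in inferior pools, which also did not overlap. Their median log2 difference of 0.23, with 11 of 14 genes positive, became 0.06 with 8 of 14 under quantile normalization and 0.12 with 10 of 14 under cyclic loess, while the oxidation median was 0.11 and 0.08 there. Of the 14 muscle markers 1 was called, Irx4, which was higher in superior pools at 2.09 ± 0.24 (limma, adjusted p = 0.0294). The muscle markers Nkx2-5, Actn2 and Ttn had negative differences of -0.31, -0.09 and -0.06, not called. The part of muscle content in the oxidation genes was not tested.

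For triglyceride synthesis, droplets and lipolysis, 11 of 14 tested genes had a negative difference, beside 5688 of all 11195 tested genes, and the median was -0.15. Under cyclic loess this was 9 of 14, and the median stayed negative under each scaling. G0s2, an inhibitor of the triglyceride lipase Pnpla2, had signals of 451.3, 377.6 and 347.9 in superior and of 943.3, 455.7 and 707.3 in inferior pools. The regions did not overlap, and the difference of -0.78 ± 0.15 was not called (limma, adjusted p = 0.139). Pnpla2 itself differed by -0.16 ± 0.13 (adjusted p = 0.688).

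Among 10 tested genes of lipoprotein uptake and cholesterol export the median was -0.14, with 7 of them negative. Apoc1, an apolipoprotein gene that neighbours Apoe in the genome, had signals of 29.9, 33.8 and 30.8 in superior and of 53.9, 38.8 and 71.0 in inferior pools. As for Apoe, the superior arrays lay below the inferior ones without overlap and the gap was widest in pool 7. The difference was -0.70 ± 0.20 and did not pass (limma, adjusted p = 0.308). Sorl1, a sorting receptor of the LDL receptor family, had -0.35 ± 0.10 (adjusted p = 0.325).

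None of the 10 tested genes of fatty acid activation and transport was called, and their differences, 4 positive and 6 negative, had a median of -0.08. Slc27a2, a very long chain acyl-CoA synthetase, had signals of 12.7, 18.8 and 21.5 in superior and of 21.2, 29.4 and 46.0 in inferior pools, a difference of -0.73 ± 0.19 (adjusted p = 0.263). Acsl5, a long-chain acyl-CoA synthetase, had 313.6, 281.5 and 277.8 against 206.3, 246.9 and 216.5, a difference of 0.38 ± 0.11 (adjusted p = 0.315) without overlap. The lists of fatty acid synthesis and sterol synthesis had medians of -0.01 and -0.05, the first turning to 0.03 under 75th percentile scaling, with Elovl6, a fatty acid elongase, at -0.19 ± 0.11 (adjusted p = 0.559) and, for its brightest probe set, -0.14 ± 0.10 (adjusted p = 0.665), and Srebf2, the regulator of sterol synthesis, at -0.42 ± 0.12 (adjusted p = 0.321). The last list held PPAR and RXR receptors and their coactivators together with Pdk1, Pdk2, Pdk3 and Ucp1, which are metabolic genes. Its smallest p belonged to a dim Rxra probe set, with -0.68 ± 0.20 (limma, adjusted p = 0.321), whereas the brightest Rxra probe set had -0.02 ± 0.13 (adjusted p = 0.979). Rxrb had -0.39 ± 0.22 (adjusted p = 0.547), with -1.13 in pool 7 and 0.08 in pool 6. The median over the list's 8 tested genes, 3 of them Pdk kinases at 0.13, -0.06 and 0.19, was -0.02 and became positive under each of the other scalings.

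**Figure D4:**
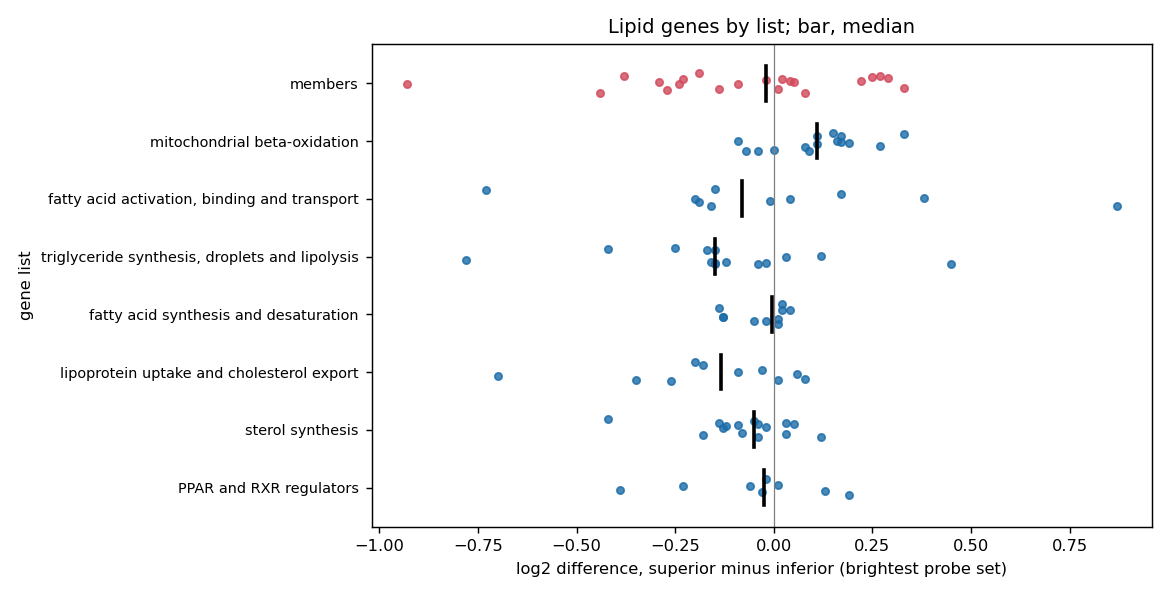
Log2 difference, superior minus inferior (horizontal axis), of the brightest tested probe set of each gene, for the members (21 genes, red) and 7 lists of further lipid genes (blue), with black bars for medians. The members' median is -0.02, beta-oxidation genes lie mostly to the right at a median of 0.11 and triglyceride genes mostly to the left at -0.15, and no gene of the 7 lists was called. The list labelled PPAR and RXR regulators also holds 3 Pdk kinases.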

How the data were processed

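Per the submitters' processing notes, the authors used MAS5, whose version those notes leave out, and deposited 1 linear signal intensity for each probe set and array. The trimmed mean of every array was 100, as tested on the file. Of 45101 probe sets, 64 controls were left out; of the others, 34945 named 1 gene in the platform annotation, 932 several and 9160 none, and a check by gene ID against RefSeq symbols changed 0.

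Signals were turned into log2(signal + 3.2), the offset being the 25th percentile of all signals, so fold changes of dim genes are understated. Probe sets were tested when their mean lay above the median, a signal of about 15.1. Regions were compared with limma 3.58.1 in R 4.3.3 (trend and robust eBayes) with the pool number as a block, and p-values were adjusted over 22518 probe sets. The deviations of same-numbered arrays from their region's mean correlated at 0.79, 0.43 and 0.51 in pools 1, 6 and 7, above the limit of 0.1 set for pairing, although unlike-numbered arrays of pools 6 and 7 reached 0.20 and 0.18. The labels do not say that equal numbers mean the same embryos. The scripts were tested on simulated data.

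The members and lists were chosen with earlier results of these data known. Values on every array were to be given for called members, for members whose brightest probe set differed by 0.4 or more one way in all 3 pools, and for members with tested probe sets of opposite sign beyond 0.2. Only Apoe met this rule, and the others shown in full were chosen after their values were seen. From each further list, called genes or the gene with the smallest p of any tested probe set were named. The number of arrays limits the precision.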

Additional observations from a re-analysis of the deposited data

Results flagged for a closer look

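A signal outside the comparisons was found for Cpt1b, the muscle form of the enzyme that brings fatty acids into mitochondria. The probe set that names it also names Gm44502 and Chkb, and was therefore left out of the members. Its signal was 224.1 at the lowest and 325.6 at the highest of the 6 arrays, above the background of 8.0, with a log2 difference of -0.08 ± 0.10 (limma, adjusted p = 0.805). Which of the 3 genes gave the signal cannot be told apart.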

How the results depend on the processing

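The single call, that of Apoe, depended on the settings. The count of member probe sets and of member genes called was 0 rather than 1 with no replicate block, with a random replicate block, with an offset of 1, with no filter on dim probe sets, among the top 25% by signal, under quantile normalization, under cyclic loess and without trend and robust variance. The unpaired fit without any single array also gave 0. Leaving out 1 pool gave 0 to 1 calls, with 0 without pool 1. The Apoe difference itself was -0.93 with no replicate block (adjusted p = 1), with a random replicate block (0.158), with no filter (0.211), among the top 25% (0.114) and without trend and robust variance (0.264). It was -0.94 with an offset of 1 (0.0501) and -0.91 under quantile normalization (0.0634) and cyclic loess (0.0524). Without a pool it ran from -1.07 to -0.74. The call held with an offset of 16, under 75th percentile scaling, without pool 6 and without pool 7. The causes of the lost calls were not tested. The paired fit leaves 2 residual degrees of freedom, and its calls rest on variance shared across probe sets. The brightest Scd2 probe set reversed to -0.03 under quantile normalization and cyclic loess. For 11 member probe sets, 136 of 138 alternative values kept their direction. Changes of block, filter or variance model left each estimate as it was and could not turn a sign. Only the offset, the scaling and leaving out a pool could do so. The members' median stayed within 0.08, the SD over pools, of its reported value in each setting run. Averaging a gene's probe sets left the count of called genes at 1. The block ended no other member's call, since no other member was called.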

Other observations

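Pparg, the nuclear receptor that drives fat cell differentiation and many lipid uptake genes, was too dim on average to be tested. Its probe set had signals of 12.8, 2.6 and 1.6 in superior and of 42.7, 19.1 and 13.8 in inferior pools, so the regions did not overlap and only 1 superior array was above background. Lipg, an endothelial lipase of lipoproteins, had signals of 35.6, 39.6 and 12.2 in superior and of 13.5, 13.5 and 11.9 in inferior pools for its 1 tested probe set, a log2 difference of 0.87 ± 0.28 (limma, adjusted p = 0.369) that was near 0 in pool 7. Both genes were singled out after their values were seen.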
